A study of Mus musculus with 25 samples.

Results

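Neurotransmitter receptor genes were examined in H3K27me3 chromatin immunoprecipitation sequencing (ChIP-seq) of regenerating mouse myofibers. A gene was included when its symbol began with Gria, Grik, Grin followed by 1, 2 or 3, Grm, Gabr, Glra, Chrn, Chrm, Htr followed by a digit, Drd, Adra or Adrb and at least 1 of the 12 H3K27me3 peak lists assigned it a peak on chromosomes 1 to 19. This rule found 62 of the 5470 autosomal genes with a peak, and 295 of the 30979 autosomal peaks. Of these genes, 32 encode subunits of ligand-gated channels, 29 encode G protein-coupled receptors, and Grin1os is a noncoding RNA that shares the Grin1 locus. Genes whose peaks were counted are members whatever the genotype in which the peak was found, so the rule used no difference between genotypes.

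The tibialis anterior of mice that carried a mito-Dendra2 reporter and the stem cell driver Pax7-Cre(ERT2) was injured with BaCl2 (50 µL of a 1.2% solution). Tamoxifen had been given at 75 mg/kg on 5 days, ending 2 days before injury, and fibers positive for Dendra2, that is, formed from recombined stem cells, were taken 14 days post injury (dpi). All 4 genotypes shared this driver, reporter, tamoxifen and injury: wild-type, mfn2-/- (loss of the mitochondrial protein mitofusin 2), vhl-/- (loss of the factor that marks HIF1α for degradation) and HIF1dPA (a HIF1α with prolines changed to alanines, which VHL does not recognize). Each genotype had 3 H3K27me3 and 3 H3K9me3 libraries, and the comparison addressed whether the mutants carried repressive marks on other genes than wild-type did. The study describes the libraries as biological replicates, and it names separate mice for the comparison with mfn2-/-. Age, strain and sex are not in the labels.

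H3K27me3 is placed by the Polycomb repressive complex 2 and covers promoters of developmental genes that a cell type keeps silent. Receptors for glutamate, GABA, glycine, monoamines and acetylcholine act mainly in neurons and glia, and many of their genes are Polycomb targets in tissues outside the nervous system. Skeletal muscle uses a nicotinic acetylcholine receptor at the neuromuscular junction and adrenergic receptors on the fiber, vessels and other cells of the tissue.

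The deposited lists give each peak's interval, a score and the gene to which the authors assigned it. Scores are -log10 p-values multiplied by 10, and the lowest was 50. The number of reads behind a list is unknown, and the lists were of unequal length, with 3427 to 3763 autosomal peaks in wild-type, 2342 to 2574 in mfn2-/-, 3626 to 4023 in vhl-/- and 474 to 496 in HIF1dPA. None of 9 myofiber markers, among them Acta1, Ckm and Ttn, had an H3K27me3 peak in any list, and none of 3 endothelial markers did. Peaks were found at Pax7, a muscle stem cell gene, in 5 lists, at Pdgfra, a fibro-adipogenic marker, in 9, and at Rbfox3, a neuronal marker, in 9, and 2 of 3 leukocyte markers had one in 1 list each. In dissected tissue, fewer nuclei with the mark and less mark per nucleus cannot be told apart.

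Receptor genes carried H3K27me3 peaks in a larger share of cases than protein-coding genes did in general. RefSeq lists 89 autosomal protein-coding genes that the symbol rule matches, and 61 of them (68.5%) had a peak in at least 1 list, against 3993 of 20665 protein-coding genes (19.3%). In at least 3 lists, the shares were 38.2% of receptor genes and 8.26% of all protein-coding genes, and a peak annotated to a promoter was present at 46.1% and 11.6%. Receptor genes are also longer, with a median span of 38154 bp against 17491 bp, and the part of length in these shares was not tested. G protein-coupled receptors had a peak in 29 of 38 cases (76.3%), and channel subunits in 32 of 51 (62.7%). At promoters the classes stood at 60.5% and 35.3%.

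**Figure D1:**
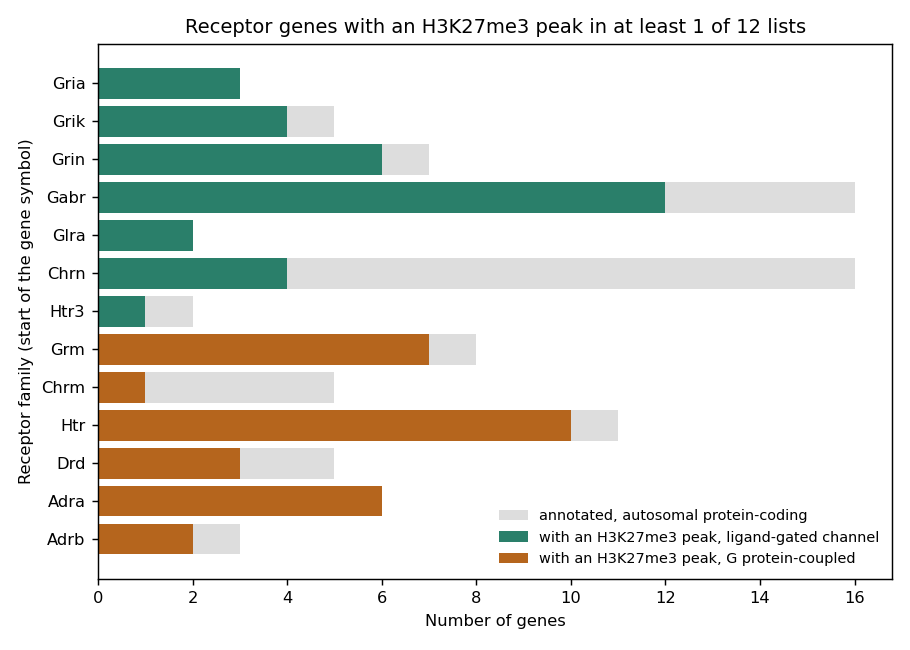
Number of autosomal protein-coding receptor genes per family (x axis) that RefSeq lists (grey) and that had an H3K27me3 peak in at least 1 of 12 lists (green for channel subunits, brown for G protein-coupled receptors). All 6 Adra and all 3 Gria genes had a peak, whereas 4 of 16 Chrn and 1 of 5 Chrm genes did.

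The families were not covered evenly. Every alpha-adrenergic gene (Adra, 6 of 6) and every AMPA-type glutamate receptor gene (Gria, 3 of 3) had a peak, and so did 10 of 11 G protein-coupled serotonin receptor genes, 12 of 16 GABA-A subunit genes, 7 of 8 metabotropic glutamate receptor genes and 6 of 7 NMDA receptor genes. The acetylcholine receptors had the lowest shares, near the 19.3% of all protein-coding genes. A peak in any list was found at 4 of 16 nicotinic subunit genes (Chrna3, Chrna4, Chrna5 and Chrna7) and 1 of 5 muscarinic genes (Chrm4). The subunits of the muscle acetylcholine receptor, Chrna1, Chrnb1, Chrnd, Chrne and Chrng, had no H3K27me3 peak in any of the 12 lists. The same held for 16672 of the 20665 protein-coding genes, so this absence is not particular to them.

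The gene with a peak in the most lists was Adrb1, the beta-1 adrenergic receptor of heart and other tissues. Its peaks covered 1365, 2479 and 3140 bp in the wild-type libraries, 1759, 656 and 529 bp in mfn2-/-, 3266, 3008 and 3202 bp in vhl-/-, and 1117, 0 and 0 bp in HIF1dPA. The vhl-/- libraries lay close together and above all mfn2-/- and HIF1dPA libraries, and the wild-type libraries overlapped both mfn2-/- and vhl-/-. How many of all genes have this order was not counted. The highest scores were 113.10 in vhl-/-, 112.57 in wild-type, 97.88 in mfn2-/- and 52.14 in HIF1dPA. Position differed between libraries as well, but how many of all regions split in this way was not counted. A region over the gene itself, chr19:56722378-56726216, was marked in each wild-type and each vhl-/- list but in 1 mfn2-/- and no HIF1dPA list, and the peaks of mfn2-/- replicates 2 and 3 lay upstream in intergenic sequence.

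Adra2a encodes the alpha-2A adrenergic receptor, which inhibits adenylyl cyclase and transmitter release, and it held the strongest receptor peak of all lists, with a score of 211.62 in wild-type replicate 1. Covered length was 2427, 3079 and 672 bp in wild-type, 1822, 1793 and 0 bp in mfn2-/-, 1900, 2315 and 4327 bp in vhl-/-, and 0, 0 and 479 bp in HIF1dPA. The single peak of wild-type replicate 3 was intergenic. The region over the gene, chr19:54045260-54049015, was shared by 8 lists, the most for any receptor region. Htr7, a serotonin receptor coupled to cAMP production, had 1667, 3798 and 977 bp in wild-type, 0, 1179 and 1085 bp in mfn2-/-, 1303, 1293 and 946 bp in vhl-/-, and no peak in HIF1dPA. Its peaks lay on either side of the start, and the highest score was 174.64 in wild-type replicate 2.

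The 250 bases upstream of the RefSeq start (GRCm38.p6, read in the direction of the gene) are printed for these G protein-coupled receptor genes because their peaks gather around the start. Capitals mark CG dinucleotides, the sites typical of CpG islands, where H3K27me3 is often found.
Adrb1 (chr19:56721867-56722116, + strand): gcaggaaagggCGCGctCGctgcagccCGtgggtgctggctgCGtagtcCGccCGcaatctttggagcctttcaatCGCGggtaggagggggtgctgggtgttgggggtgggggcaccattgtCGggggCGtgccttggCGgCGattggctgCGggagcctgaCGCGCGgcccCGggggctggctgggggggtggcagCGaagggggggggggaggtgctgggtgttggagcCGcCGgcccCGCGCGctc
Adra2a (chr19:54045009-54045258, + strand): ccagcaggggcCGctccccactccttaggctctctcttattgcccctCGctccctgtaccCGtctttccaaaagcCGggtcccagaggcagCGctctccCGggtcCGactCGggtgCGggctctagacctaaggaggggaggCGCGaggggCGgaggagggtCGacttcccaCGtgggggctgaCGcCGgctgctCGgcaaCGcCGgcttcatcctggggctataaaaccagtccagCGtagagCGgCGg
Htr7 (chr19:36057361-36057610, - strand): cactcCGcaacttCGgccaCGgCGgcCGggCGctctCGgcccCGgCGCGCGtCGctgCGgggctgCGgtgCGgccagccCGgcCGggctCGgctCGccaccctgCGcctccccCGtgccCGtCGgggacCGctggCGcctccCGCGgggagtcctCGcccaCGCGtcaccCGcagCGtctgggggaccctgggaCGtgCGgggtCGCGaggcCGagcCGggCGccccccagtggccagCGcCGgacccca
These windows hold 24 CG in Adrb1, 22 in Adra2a and 41 in Htr7, against a median of 10 over the 16457 autosomal protein-coding promoters of the same length. A peak reached into the window itself in 4 lists for Adrb1 and in no list for Adra2a or Htr7, whose peaks began beside it. The start used for Htr7 lies inside its RefSeq span, which ends at chr19:36058133. A region over that end, chr19:36057756-36058651, had a peak in 2 wild-type lists.

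Chrna5 and Chrna3, neighboring genes on chromosome 9 that encode nicotinic subunits of neurons, were marked in 8 and 7 lists. Chrna5 peaks covered 1655, 1399 and 3001 bp in wild-type, 848, 1660 and 0 bp in mfn2-/-, 1042, 0 and 2773 bp in vhl-/-, and 0, 695 and 0 bp in HIF1dPA. A region downstream of the start (chr9:54981782-54984255) was shared by 8 lists of all genotypes. A further region across the upstream start, chr9:54979165-54981295, had a peak in all 3 wild-type lists and in none of the 9 mutant lists, with scores of 50.36, 83.41 and 204.41. Of all 13095 autosomal H3K27me3 regions, 20 (0.153%) had this pattern, and the Chrna5 region was the 1 assigned to a receptor gene. It was singled out after its values were seen.

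For Chrna3, covered length was 1030, 1114 and 610 bp in wild-type, 0, 829 and 0 bp in mfn2-/-, 580, 596 and 0 bp in vhl-/-, and 0, 603 and 0 bp in HIF1dPA. Here the peaks, 1 in each of these 7 lists, fell in separate regions. The 3 wild-type peaks and the mfn2-/- peak fell in a region inside the gene (chr9:55024117-55025307), and their centers lay 1560 to 2010 bases downstream of the start. The peaks of the vhl-/- and HIF1dPA lists fell at the start itself (chr9:55026174-55027330), and their centers lay at 98.5, -45.5 and -467 bases. This difference in position was noticed in the data and was not tested. How many of all genes show such a split was not counted, and 129 of 175 receptor regions had a peak in 1 list only. Grm6, the metabotropic glutamate receptor of retinal bipolar cells, had 1353, 588 and 878 bp in wild-type, 1203, 848 and 0 bp in mfn2-/-, 880, 0 and 0 bp in vhl-/-, and none in HIF1dPA. All 6 Grm6 peaks belonged to 1 region upstream of the start, chr11:50848317-50849924.

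Windows of 250 bases upstream of the RefSeq starts of these genes show a different base composition, and they are printed with CG again in capitals. The table gives 2 starts for Chrna5, and the wild-type peaks cross the upstream start.
Chrna5 upstream start (chr9:54980630-54980879, + strand): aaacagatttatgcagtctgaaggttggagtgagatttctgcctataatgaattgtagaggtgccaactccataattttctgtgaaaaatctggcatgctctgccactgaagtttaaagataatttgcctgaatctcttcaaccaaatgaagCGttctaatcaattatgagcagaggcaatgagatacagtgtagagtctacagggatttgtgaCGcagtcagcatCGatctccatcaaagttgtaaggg
Chrna5 downstream start (chr9:54981238-54981487, + strand): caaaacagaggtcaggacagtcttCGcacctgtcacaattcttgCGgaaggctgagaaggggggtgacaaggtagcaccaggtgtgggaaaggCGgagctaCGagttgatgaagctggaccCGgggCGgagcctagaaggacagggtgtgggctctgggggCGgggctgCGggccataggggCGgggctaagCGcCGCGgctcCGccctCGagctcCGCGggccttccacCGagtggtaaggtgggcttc
Chrna3 (chr9:55026563-55026812, - strand): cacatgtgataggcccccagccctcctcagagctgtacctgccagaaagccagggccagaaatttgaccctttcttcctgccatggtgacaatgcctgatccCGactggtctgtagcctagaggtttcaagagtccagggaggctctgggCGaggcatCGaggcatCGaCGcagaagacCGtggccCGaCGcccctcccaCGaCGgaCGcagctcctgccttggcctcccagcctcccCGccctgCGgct
Grm6 (chr11:50850435-50850684, + strand): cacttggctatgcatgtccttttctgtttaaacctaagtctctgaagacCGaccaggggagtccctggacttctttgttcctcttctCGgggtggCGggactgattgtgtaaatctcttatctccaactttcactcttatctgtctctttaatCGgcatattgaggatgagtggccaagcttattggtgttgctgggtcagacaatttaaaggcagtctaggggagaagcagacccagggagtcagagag
The upstream Chrna5 window has 3 CG and the Grm6 window 4, whereas the downstream Chrna5 window has 17 and Chrna3 has 13. Thus, windows of genes with a promoter peak in 6 or more lists ranged from CG-poor to CG-rich. Those list counts take any peak annotated to a promoter, and such a peak need not cover the window. The upstream Chrna5 window was overlapped in 3 lists, all wild-type, and the downstream one in 1. The Grm6 window lies inside the RefSeq span, which begins at chr11:50850369, and all 6 Grm6 peaks lay upstream of both.

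**Figure D2:**
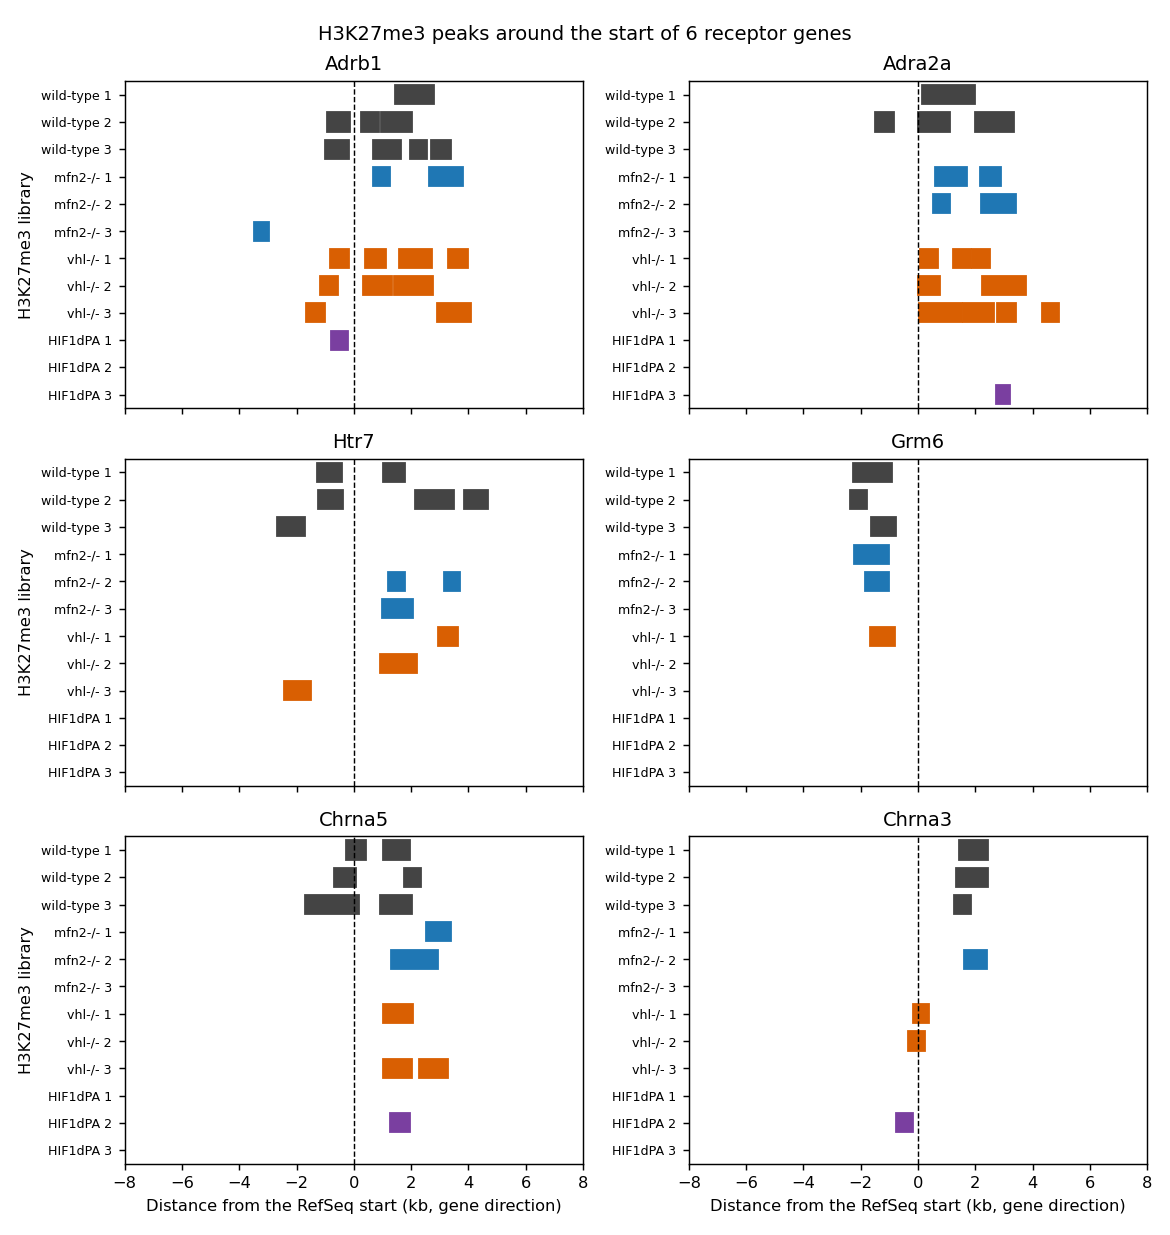
H3K27me3 peaks (bars) of 6 receptor genes in each of 12 libraries, by distance in kb from the RefSeq start (dashed line, the upstream start for Chrna5; positive is into the gene); peaks more than 8 kb away are not drawn. Wild-type bars (grey) cross the upstream Chrna5 start in all 3 lists. Chrna3 bars lie downstream of the start in 3 wild-type lists and 1 mfn2-/- list, and at the start in 2 vhl-/- lists and 1 HIF1dPA list.

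Among glutamate-gated channels, Grik3 and Grik4 (kainate receptors) and Grin1, Grin2c and Grin3a (NMDA receptors) had a peak in 6 or more lists. Grik3 peaks covered 3626, 720 and 0 bp in wild-type, 951, 575 and 1798 bp in mfn2-/-, 1074, 2881 and 3195 bp in vhl-/-, and none in HIF1dPA. Wild-type libraries spanned nearly the whole range of the gene, and the genotypes other than HIF1dPA overlapped. A region just upstream of the start, chr4:125488417-125490061, had a peak in 2 mfn2-/- and 2 vhl-/- lists and in no wild-type list. Wild-type peaks lay on either side of it, within chr4:125486601-125487797 (replicate 2) and chr4:125493162-125494147 (replicate 1). The share of all regions with this pattern was not counted.

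Grin1 encodes the subunit that all NMDA receptors need, and its mark lay in the gene body. Covered length was 1840, 0 and 1226 bp in wild-type, 0, 572 and 791 bp in mfn2-/-, 1505, 648 and 0 bp in vhl-/-, and 0, 0 and 731 bp in HIF1dPA. Of the 7 lists with a Grin1 peak, 2 had it at a promoter, and most peaks were annotated to exons. For Grik4, promoter peaks were found in 2 of 7 lists, with covered lengths of 803, 0 and 2132 bp in wild-type, 604, 0 and 1268 bp in mfn2-/-, 0, 596 and 791 bp in vhl-/-, and 0, 0 and 613 bp in HIF1dPA. Grin2c had 1454, 1583 and 0 bp in wild-type, 0, 0 and 566 bp in mfn2-/-, 1226, 1553 and 917 bp in vhl-/-, and none in HIF1dPA. Grin3a was marked in 1 wild-type list (797 bp), in 2 mfn2-/- lists (552 and 512 bp), in 2 vhl-/- lists (2095 and 1339 bp) and in 1 HIF1dPA list (613 bp). For none of these channel genes did the wild-type libraries lie apart from those of a mutant. Grin2c was higher in every vhl-/- library than in any mfn2-/- or HIF1dPA library, and Grik3 was marked in every mfn2-/- and vhl-/- library and in no HIF1dPA library. The share of all genes with such patterns was not counted, and HIF1dPA lists held 474 to 496 autosomal peaks against 3626 to 4023 in vhl-/-.

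Grm8, a presynaptic metabotropic glutamate receptor, covered 639, 890 and 0 bp in wild-type, 629, 0 and 1152 bp in mfn2-/-, 3636, 673 and 777 bp in vhl-/-, and none in HIF1dPA. Adra2c, the alpha-2C adrenergic receptor, covered 1048, 1116 and 1700 bp in wild-type, 0, 567 and 532 bp in mfn2-/-, 0, 736 and 0 bp in vhl-/-, and 0, 556 and 0 bp in HIF1dPA. All wild-type values of Adra2c lay above all mutant values, but the share of all genes with this order was not counted. Its scores never exceeded 59.02, and 3 of its 7 lists had a promoter peak. The lengths include intergenic peaks centered at -30031.5 (wild-type replicate 1), -36329 (mfn2-/- replicate 2) and -35974.5 bases (HIF1dPA replicate 2) from the start.

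By the mean percentile of the strongest peak in the lists that held the gene, Chrna5 (79.7), Adra2a (79.1), Htr7 (70.7), Adrb3 (67.6) and Grm7 (66.0) ranked highest. A percentile is the peak's rank by score within its own list, where 100 is the strongest. Adrb3, the beta-3 adrenergic receptor of fat cells, had a promoter peak in wild-type replicate 1 (1264 bp) and vhl-/- replicate 1 (1164 bp) and in no other list. Grm7 rests on 1 peak of 617 bp in HIF1dPA replicate 3, with a score of 59.75. An Adra1a peak with a score of 59.77 stood at percentile 37.7 in vhl-/- replicate 2. Percentiles of different lists therefore do not rank peaks of equal strength alike. When all peaks of a gene are averaged, Drd3 (62.0, 1 list) and Htr6 (60.2, 1 list) also come into the highest 5.

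The remaining receptor genes were marked in few lists. GABA-A subunit genes had 24 peaks over 12 genes, none in more than 4 lists, with a highest score of 89.54. Glycine receptor genes had 2 peaks in all. Dopamine receptor genes had 9 peaks, most of them at Drd4, which was marked in all 3 vhl-/- lists (1180, 3191 and 725 bp), in wild-type replicate 3 (1021 bp) and in mfn2-/- replicate 1 (622 bp). Altogether 21 of the 62 genes (33.9%) had a peak in exactly 1 list, compared with 43.8% of all autosomal genes with a peak, and 34 (54.8%) were in at least 3 lists, compared with 39.9%. At the upper end the order turned. Only Adrb1 and Adra2a (3.23%) were in at least 9 lists, against 8.12% of all genes, and no receptor gene was in all 12 lists, where 38 genes were.

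**Figure D3:**
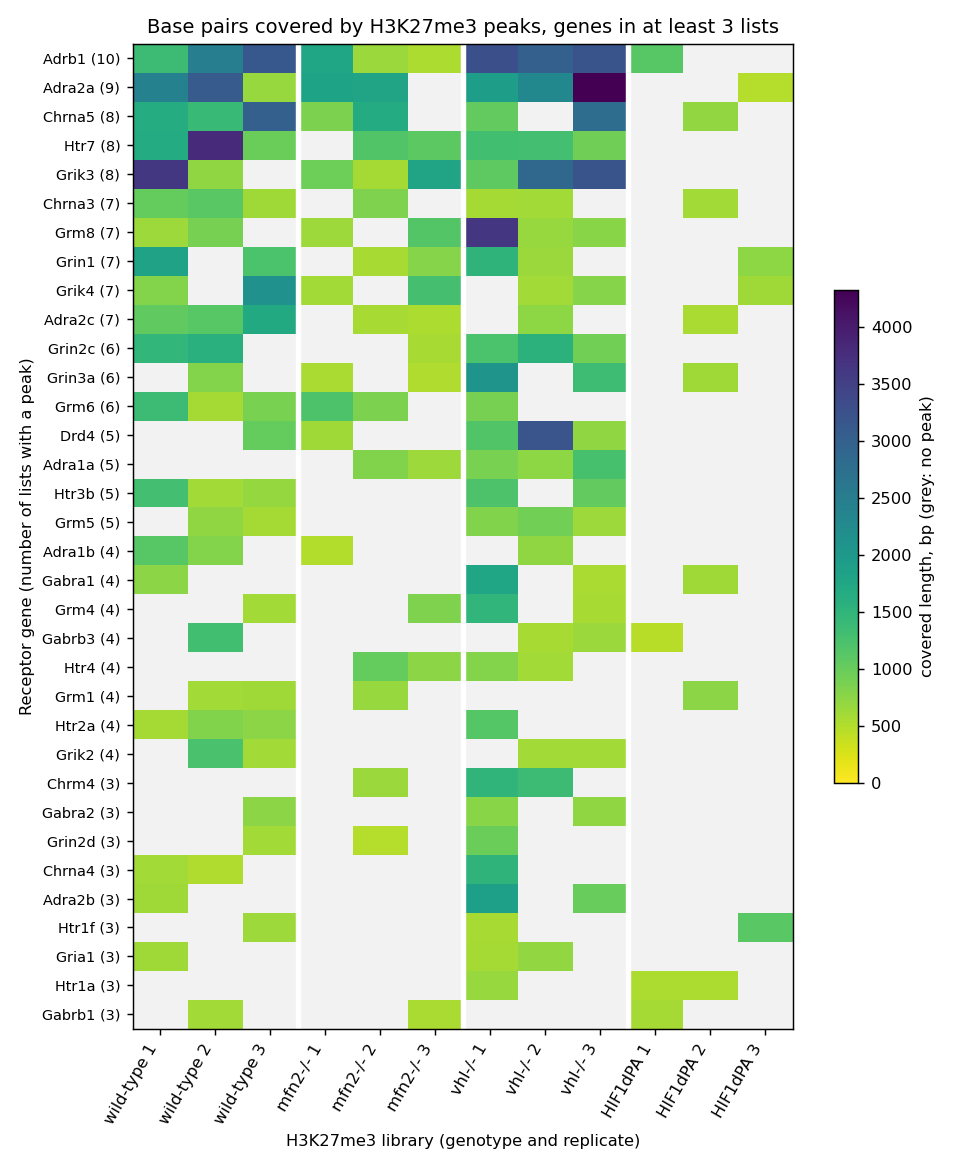
Base pairs covered by H3K27me3 peaks (color, bp; grey where the list has no peak) for the 34 receptor genes in at least 3 lists (rows, number of lists in parentheses) in the 12 libraries (columns). Adrb1 at the top has a peak in 10 lists, and the HIF1dPA columns are mostly empty.

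Across genotypes, the number of receptor genes with a peak followed the length of the list. It was 26, 23 and 22 in wild-type (23.7 ± 2.08, SD, n = 3), 12, 16 and 15 in mfn2-/- (14.3 ± 2.08), 33, 22 and 23 in vhl-/- (26.0 ± 6.08) and 4, 9 and 5 in HIF1dPA (6.0 ± 2.65). All mfn2-/- and HIF1dPA lists lay below all wild-type lists, and vhl-/- lists overlapped them. As a share of all autosomal genes with a peak in the same list, the means were 1.22%, 1.10%, 1.32% and 1.41%, and the lists of every mutant overlapped the wild-type range of 1.18% to 1.28%. As a share of peaks, receptor genes took 0.997% ± 0.0584 in wild-type, 1.03% ± 0.300 in vhl-/-, 0.694% ± 0.121 in mfn2-/- and 1.36% ± 0.408 in HIF1dPA. On this scale each mfn2-/- list (0.570% to 0.811%) was below each wild-type list (0.934% to 1.05%).

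Both classes moved together. Channel genes numbered 12, 11 and 10 in wild-type, 5, 5 and 7 in mfn2-/-, 16, 9 and 13 in vhl-/- and 2, 6 and 2 in HIF1dPA. Genes for G protein-coupled receptors numbered 14, 11 and 12, then 6, 11 and 8, then 17, 13 and 10, and 2, 3 and 3 in the same order of genotypes. When every list was cut to its 474 strongest autosomal peaks, the length of the shortest list, receptor genes numbered 3, 3 and 1 in wild-type, 0, 4 and 1 in mfn2-/-, 1, 2 and 1 in vhl-/- and 4, 9 and 5 in HIF1dPA. As a share of the genes left in a list, these were 0.306% to 0.929% in wild-type and 0.948% to 2.20% in HIF1dPA. The cut left the HIF1dPA lists nearly whole and removed the weaker peaks of the other lists, so these counts do not compare peaks of equal strength. Receptor peaks of HIF1dPA had scores of at most 67.56.

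**Figure D4:**
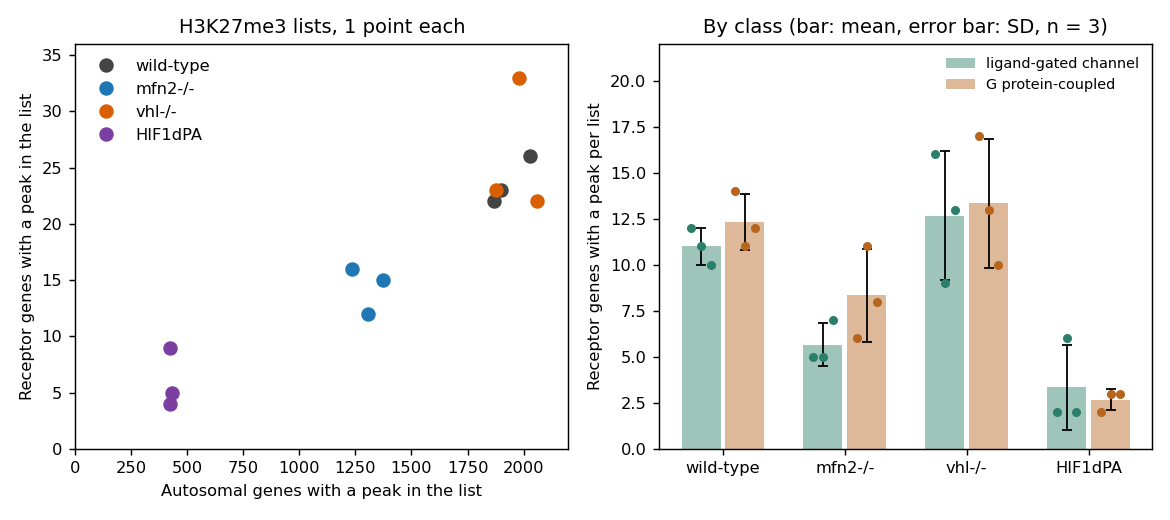
Left, receptor genes with an H3K27me3 peak (y axis) against all autosomal genes with a peak (x axis) in each of 12 lists. Right, receptor genes per list by class for each genotype (points, libraries; bars, mean; error bars, SD, n = 3); both classes average lower in mfn2-/- and HIF1dPA than in wild-type.

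Covered length was tested gene by gene over the 4 genotypes with an exact permutation test (15400 arrangements, smallest p 6.49e-05) and Benjamini-Hochberg adjustment over all 5470 genes. No gene had an adjusted p under 0.05 (0%), and none of the 62 receptor genes did. The lowest adjusted p of any gene was 0.0888. Without adjustment, 594 genes (10.9%) had p under 0.05, and 6 of the 62 receptor genes did, close to that background. These were Adrb1 (p = 0.00818, adjusted p = 0.209), Adra1a (p = 0.00909), Grm5 (p = 0.00909), Htr7 (p = 0.0179), Adra2c (p = 0.0253) and Drd4 (p = 0.0455) in the exact permutation test. The 5 Grm5 peaks came from 5 lists and lay in separate regions, 1 of them at a promoter, with scores of 52.11 to 64.55. When only the 2184 genes in at least 3 lists were tested, 60 (2.75%) passed after adjustment, and no receptor gene was among them.

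Wild-type and mfn2-/- were next compared by complete separation, that is, a peak in all 3 libraries of one genotype and in none of the other. With 3 against 3 libraries a permutation test cannot go below p = 0.1, so these are counts without a test. Of 4239 genes with a peak in either genotype, 92 (2.17%) were marked in all wild-type and no mfn2-/- lists, and 2 of the 50 receptor genes were, Htr2a and Htr3b. Both are serotonin receptors. Htr2a, coupled to calcium release, covered 582, 812 and 744 bp in wild-type, 0 bp in every mfn2-/- library, 1139, 0 and 0 bp in vhl-/- and 0 bp in every HIF1dPA library. Its wild-type peaks shared 1 region downstream of the start, chr14:74641354-74642697, with scores of 59.85, 51.72 and 64.37. Htr3b, a channel subunit, covered 1290, 605 and 684 bp in wild-type, 0 bp in every mfn2-/- library, 1209, 0 and 1038 bp in vhl-/- and 0 bp in every HIF1dPA library. The peak in wild-type replicate 3 was intronic and apart from the others. In the reverse direction 9 genes (0.212%) were marked only in mfn2-/-, and no receptor gene.

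In vhl-/-, the 1 receptor gene of 55 that was marked in all 3 mutant and no wild-type lists was Adra1a, where the background was 37 of 4698 genes (0.788%). Adra1a encodes the alpha-1A adrenergic receptor, which drives smooth muscle contraction. Covered length was 0 bp in every wild-type library, 0, 820 and 635 bp in mfn2-/-, 871, 729 and 1264 bp in vhl-/-, and 0 bp in every HIF1dPA library. All of these peaks were annotated to a promoter and fell in 1 merged region, chr14:66634352-66637558, with scores from 51.10 to 143.67. The region is a chain of peaks. Those of vhl-/- replicate 1 (chr14:66634782-66635652) and replicate 2 (chr14:66636574-66637302) did not overlap, so no base was covered in all 3 vhl-/- lists. Regions with this pattern against wild-type numbered 61 of 10714 (0.569%), and this was the 1 receptor region. No receptor gene was marked in all wild-type and no vhl-/- lists (25 genes, 0.532%).

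For HIF1dPA, 387 of 3827 genes (10.1%) were marked in every wild-type list and in no HIF1dPA list, and 4 of 46 receptor genes did, a share near that background: Grm6, Htr2a, Htr3b and Htr7. In the other direction there was 1 gene in all (0.0261%) and no receptor gene. The 3 comparisons share the wild-type libraries, so Htr2a and Htr3b in the mfn2-/- and HIF1dPA comparisons rest on the same wild-type peaks.

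By position, 187 of 295 receptor peaks (63.4%) were annotated to a promoter (within 3 kb of a start), against 50.4% of all autosomal peaks. The share was 70.0% for G protein-coupled receptors and 54.9% for channels, and it ranged among families from 20% of 5 peaks (Gria) to 88.0% of 25 (Chrn) and all 3 peaks of Chrm. In each list set, receptor peaks were at promoters in 65.5% ± 14.2 (wild-type), 59.1% ± 24.1 (mfn2-/-), 71.0% ± 3.21 (vhl-/-) and 28.9% ± 7.70 (HIF1dPA, n = 3 each). The same shares for all autosomal peaks were 49.3%, 52.2%, 51.5% and 38.9%. The HIF1dPA shares rest on 5, 9 and 6 receptor peaks, so 1 peak moves them by more than the difference from all peaks in each list, and mfn2-/- lists ranged from 38.9% to 85.7%. These differences were not tested. Of the 236 peaks of genes with a RefSeq promoter entry, 133 had their center within 3 kb of the start, 92 downstream and 41 upstream of it.

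The receptor peaks were weak. Their median percentile was 38.4 within their lists, and 30 of 295 (10.2%) had a score of at least 100, compared with 17.99% of all autosomal peaks. Median width was 665 bp against 755 bp. By genotype, the mean of the library medians was 37.8 for wild-type, 41.1 for vhl-/-, 39.0 for mfn2-/- and 37.8 for HIF1dPA, a spread smaller than that between the libraries of mfn2-/- or HIF1dPA. After merging overlapping peaks, 129 of 175 receptor regions (73.7%) were found in 1 list, against 69.6% of all regions, and 23 (13.1%) were in at least 3 lists, against 18.6%.

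Promoter sequence was compared over genes with a RefSeq entry (45 of 62 members, Grin1os included). In the 250 bases upstream of the start, the ratio of observed to expected CG was 0.537 at the median of 44 receptor genes with a peak, 0.599 for the 17 with a promoter peak in at least 3 lists, and 0.336 for 20 receptor genes with no peak. It was 0.546 over all 16457 protein-coding promoters. A ratio above 0.6 was found in 40.9%, 47.1%, 15.0% and 45.9%, in that order. The core letters of the HIF binding motif, ACGTG or GCGTG, were searched on both strands, and a promoter with either word was counted once. They occurred in 38.6%, 41.2%, 30.0% and 44.1%, again in that order.

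The other genes of neurotransmission formed a list of 52 transporters, synthetic enzymes and further receptors. Of these, 28 had an H3K27me3 peak, where 19.3% of all protein-coding genes did, 15 in at least 3 lists and 11 in at least 6, and none had an adjusted p under 0.05, with 3 of the 28 at an unadjusted p under 0.05 (exact permutation test), close to the 10.9% over all genes. Genes with a peak in at least 1 library numbered 21 for wild-type, 21 for vhl-/-, 17 for mfn2-/- and 6 for HIF1dPA. The genes marked in most lists define inhibitory and glutamatergic neurons. Slc17a6, a vesicular glutamate transporter, and Slc6a5, the neuronal glycine transporter, were in 10 lists each, Gad2, which makes GABA, in 9, and Slc32a1, the vesicular GABA transporter, in 8. Slc6a5 had the lowest p of the list (p = 0.000455, adjusted p = 0.101, exact permutation test). Of 9 genes of acetylcholine signaling, 3 had a peak, and Musk and Rapsn, which build the postsynaptic side of the neuromuscular junction, had none.

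H3K9me3, the mark of constitutive heterochromatin, was found at 20 receptor genes (13 channel and 7 G protein-coupled), of which 19 also had an H3K27me3 peak in some list and Gabrg3 did not. Of 76 H3K9me3 peaks, 36 were intronic, 33 were intergenic and 6 (7.89%) were at promoters, against 14.0% of all autosomal H3K9me3 peaks. None overlapped an H3K27me3 receptor peak. By complete separation, Grm8 carried H3K9me3 in every wild-type list and in no vhl-/- list (1 of 15 receptor genes, background 3.41%), and Gria4 in every wild-type list and in no HIF1dPA list (1 of 16, background 2.55%). The peaks of either gene lay at different sites in each wild-type list. No receptor gene was separated between wild-type and mfn2-/- in either direction (backgrounds 5.37% and 0.596%), nor marked only in vhl-/- (0.474%) or only in HIF1dPA (0.58%).

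All 6 promoter peaks of H3K9me3 belonged to Gria1, an AMPA receptor subunit, and to 1 narrow region, chr11:57175770-57176348. The authors' annotation calls it a promoter, but it lies well inside the RefSeq span of Gria1 (chr11:57011571-57330244), far from either end of the gene. The scores there were 58.31, 94.52 and 70.65 in vhl-/- and 104.46, 75.96 and 61.51 in HIF1dPA, and no wild-type or mfn2-/- list had a peak in the region. Wild-type replicate 2 had a Gria1 peak (score 58.27) in distant intergenic sequence. The peaks were 341 to 546 bp wide and overlapped each other in the 6 lists. Of 11350 autosomal H3K9me3 regions, 21 (0.185%) had a peak in all 6 lists of vhl-/- and HIF1dPA and in no other, and this region, singled out after its values were seen, was the 1 assigned to a receptor gene. H3K9me3 peaks on the Y chromosome split the genotypes the same way, with 15 to 19 per list in wild-type, 7 to 10 in mfn2-/-, 28 to 40 in vhl-/- and 32 to 44 in HIF1dPA, and their part in this result was not tested. Drd3, a dopamine receptor, had intron 1 peaks within chr16:43768198-43769926 in all 3 mfn2-/- lists and in wild-type replicate 3 only. These peaks do not all overlap each other. The pattern was noticed in the data, and its share among all H3K9me3 regions was not counted.

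**Figure D5:**
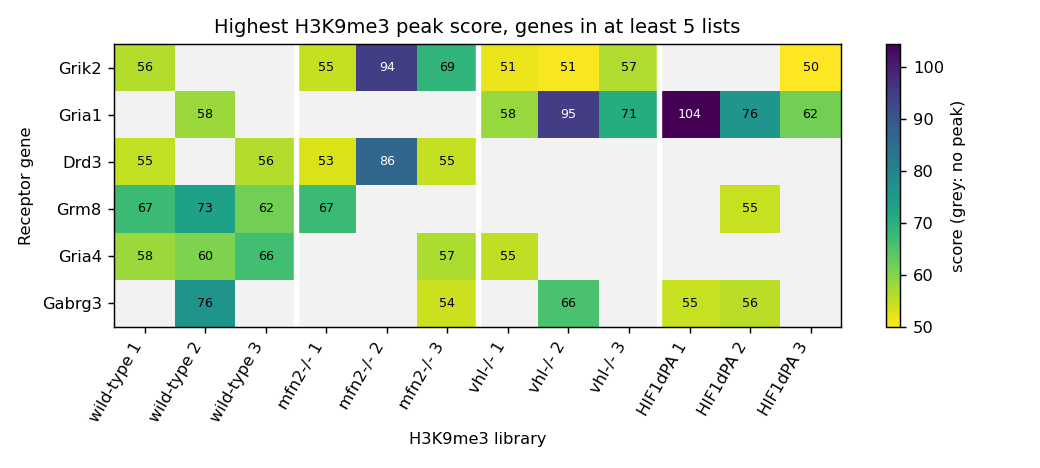
Highest H3K9me3 peak score (color and number; grey where the list has no peak) of the 6 receptor genes marked in at least 5 of 12 H3K9me3 lists (rows), by library (columns). Gria1 has scores of 58.31 to 104.46 in all vhl-/- and HIF1dPA libraries and 1 distant peak in wild-type replicate 2.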

How the data were processed

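Each of the 24 ChIP libraries had a deposited peak list, called per library. Per the labels, tissue was crosslinked with 1% formaldehyde, and sonication gave fragments near 500 bp. The submitters' processing notes name BWA 0.7.5, MACS (no version), deepTools 3.5.0 and the mm10 build. Use of the 1 input library and the handling of duplicate reads are not given in the sources used here. The authors deposited a score per peak, 10 times the negative log10 of the p-value, along with peak starts and ends, and the listed scores of at least 50 correspond to a p-value of at most 1e-05. Depth is unknown, so no interval or detection limit was computed, and scores were ranked only within a list.

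Peaks were counted for the gene to which the authors assigned them, and 4 rows without a symbol stayed out. Covered length is the sum of peak widths per gene and library. Genotypes came from the labels. No pair of lists was identical. The exact permutation test used the between-group sum of squares over 4 genotypes and was tested on simulated data. Regions are overlapping peaks merged (at least 1 bp), so peaks of lists that share a region need not overlap each other. RefSeq tables (GRCm38.p6, the same assembly as mm10) gave gene spans, all 62 matched by symbol, and promoter sequences. The members, gene lists and tests were chosen with earlier results of these data known. Values in every library are given for genes in at least 6 lists, genes called by a test or by complete separation, the 5 with the highest mean percentile, and the muscle acetylcholine receptor subunits. Drd4, Grm5, Gria1, Drd3 (H3K9me3) and the regions of Chrna5, Chrna3 and Grik3 were named after their values were seen. The alternatives were a score of at least 100, an equal number of peaks per list, presence or highest score in place of length, promoter peaks only, a minimum of 3 lists, a replicate block, and each library left out. Analyses used Python 3.11.15, NumPy 2.4.6, pandas 2.3.3, SciPy 1.17.1 and matplotlib 3.10.9.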

Additional observations from a re-analysis of the deposited data

Results flagged for a closer look

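Receptor genes on the X chromosome lie outside the rule, and their H3K27me3 peaks stood out because they occurred in 1 genotype only. The mfn2-/- lists held 11 such peaks, at Gabra3, Gabrq, Glra2 and Htr2c and spread over all 3 lists, while the wild-type, vhl-/- and HIF1dPA lists held 0. Peaks of other X-linked genes were not counted here, so the pattern is not shown to be particular to receptor genes. The labels give no sex, and the cause was not tested.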

How the results depend on the processing

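No receptor gene had an adjusted p under 0.05 in any of the alternatives run. Over all genes, 60 passed when genes had to be in at least 3 lists and 0 otherwise. The receptor genes with an unadjusted p under 0.05 (6) numbered 3 for presence of a peak and 3 without the HIF1dPA libraries (chosen after seeing the data), where all genes numbered 271 and 205 instead of 594, and 375 for promoter peaks only. With 1 library left out they numbered 4 to 7, and all genes 436 to 682. The depth of the lists is unknown, and the weak scores limit every result: the stricter settings remove most receptor peaks.

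With a score of at least 100, no receptor gene had an unadjusted p under 0.05 (all genes 153), and no receptor gene was completely separated (0 in each comparison). Over all genes, the counts marked only in wild-type were then 10 against mfn2-/-, 3 against vhl-/- and 137 against HIF1dPA, and only in the mutant 4, 13 and 0. Receptor genes per list averaged 3.00, 1.67, 4.00 and 0 (wild-type, mfn2-/-, vhl-/-, HIF1dPA), channels 1.00, 1.00, 1.33 and 0, and G protein-coupled receptors 2.00, 0.667, 2.67 and 0. The share of peaks was 0.608%, 0.406%, 0.588% and 0%, and the promoter share 93.3%, 100% and 100% in the first 3, with no HIF1dPA value for want of peaks. The median percentile was 21.2 in mfn2-/- and 21.9 in vhl-/-.

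With the 474 strongest peaks per list, again 0 receptor genes passed unadjusted (all genes 98) or were separated, and all genes separated numbered 4 (wild-type against mfn2-/-), 5 and 6 (wild-type only and vhl-/- only), and 28 and 6 (wild-type only and HIF1dPA only). Receptor genes per list averaged 2.33, 1.67 and 1.33 (wild-type, mfn2-/-, vhl-/-), channels 1.00, 1.00 and 0, and G protein-coupled receptors 1.33, 0.667 and 1.33. Shares of peaks were 0.492%, 0.352% and 0.352%, all receptor peaks in these were at promoters (100% in each), and the median percentile was 51.5 in wild-type and 22.5 in vhl-/-. HIF1dPA lists hardly changed, since the shortest of them set the number.

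With genes as the unit the receptor share was 1.22% in wild-type and 1.10% in mfn2-/-, which brings these genotypes together. Promoter peaks within 1 kb only made 33.3%, 30.6%, 37.3% and 19.6% of receptor peaks. With promoter peaks only, 1 receptor gene was marked only in wild-type against mfn2-/-, and all genes gave 59 and 4 against mfn2-/-, 16 only in wild-type against vhl-/-, and 0 only in HIF1dPA.

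Leaving out 1 library loosens complete separation by construction. Against mfn2-/-, receptor genes then numbered 2 to 4 (wild-type only) and 0 to 2 (mfn2-/- only), and all genes 128 to 218 and 14 to 34. Against vhl-/-, these were 0 to 2 and 1 to 4, with 38 to 87 and 60 to 108 of all genes. Against HIF1dPA, they were 5 to 9 and 0 to 1, with 454 to 636 and 1 to 5. Counts, shares and percentiles per genotype are means over the remaining libraries. These means lie within the range of the genotype's libraries by construction, so leaving a library out does not test them.

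Libraries of different genotypes with the same replicate number did not deviate together (18 pairs, mean correlation 0.0022, none over 0.1), so the numbers were not taken as pairs. With the replicate block (576 arrangements, smallest p 0.00174), 0 genes passed after adjustment and 5 receptor genes had an unadjusted p under 0.05.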
